A study of Mus musculus with 23 samples.

Results

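Progenitor and embryonic lung genes were followed in sorted BRAFV600E-driven mouse lung tumor cells: *Sox9*, *Sox2*, *Sox4*, *Hmga1*, *Hmga2*, *Id1*, *Id2*, *Id3*, *Mycn* and *Myc*. These 10 genes were chosen by symbol, as regulators of lung tip progenitors and of dedifferentiation, with earlier results of these data known. Counts of members set beside the share of all genes are therefore a description. The members were taken from the 35455 genes of one table of normalized counts and the 35454 of another, and each was found in both. *Sox9* and *Mycn* had lower levels where PI3Kα H1047R was added to BRAFV600E at 2 and 6 weeks post-initiation (p.i.), *Id2* and *Mycn* were higher at 6 than at 2 weeks p.i., and *Sox2* was at or near 0 in nearly every library. None of the 9 members that could be tested passed a Benjamini-Hochberg adjusted p-value of 0.05 over all genes in any comparison by limma. The differences below are therefore given mainly by size and error, with a rank among all genes for the pooled *Sox9* and *Mycn* differences.

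During lung development, cells at the tips of the branching epithelium divide and give rise first to airway and later to alveolar cells. The tip is marked by *Sox9* and *Id2*, and its growth depends on *Mycn*, while *Sox2* marks the airway epithelium behind the tip. The mature alveolar type 2 (AT2) cell, which makes surfactant, normally has little of this program, and parts of it are known to return in lung tumors.

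The members fall into 4 families. SOX9, SOX2 and SOX4 are transcription factors that bind DNA through an HMG box. HMGA1 and HMGA2 are small chromatin proteins that bind AT-rich DNA, and *Hmga2* is held down in adult tissue by let-7 microRNAs. ID1, ID2 and ID3 lack a DNA-binding region and hold back basic helix-loop-helix factors, and BMP signaling through SMAD proteins is their best known inducer. MYCN and MYC bind E-boxes together with MAX and drive genes for ribosomes and growth.

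The 23 RNA libraries came from lung tumor cells sorted by flow cytometry for tdTomato. In all mice, of mixed strain background and 3 to 4 months old by the study's methods, a *Braf* CAT allele gave BRAFV600E and tdTomato from the endogenous *Braf* locus once an adenovirus (Ad5-SpC-CRE) had delivered CRE recombinase driven by the *Sftpc* promoter, which restricts it to AT2 cells. The *Braf* CAT/+ mice (BRAFV600E) gave 1, 3 and 2 libraries at 2, 6 and 12 weeks p.i. Mice that also carried *Pik3ca* lat-H1047R (BRAFV600E/PI3Kα H1047R) gave 2, 4 and 2. *Ppargc1a* encodes the coactivator PGC1α, and littermates with 1 floxed *Ppargc1a* allele (PGC1α Het, 5 libraries) or with both alleles floxed (PGC1α Null, 4 libraries) were taken at 12 weeks p.i. Mice of 12 weeks received less virus than those of 2 and 6 weeks, so time and virus dose cannot be told apart across that step. The single BRAFV600E library of 2 weeks was from a female and both BRAFV600E/PI3Kα H1047R libraries of 2 weeks were from males, so sex and genotype cannot be told apart there.

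The values were estimated read counts, scaled by the authors between the libraries of a table, and they are called normalized counts here. The library sums ran from 16433820 to 20287296 in the time course and from 7115753 to 9159567 in the PGC1α table, and the number of reads behind them is unknown. Because the tables were scaled separately, levels are compared only within a table. *Sftpc*, the defining AT2 gene, lay between 21170 and 392700 in all libraries, and all 15 AT2 markers on the list used were above 0 somewhere in each table. The lowest *Sftpc* values, 38860 and 21170, were those of BRAFV600E/PI3Kα H1047R at 2 weeks, against 197400 in the BRAFV600E library of that week. The summed AT2 markers of those BRAFV600E/PI3Kα H1047R libraries, 89720 to 189200, lay below their summed endothelial markers, which follow. All 20 endothelial markers were also detected. Their summed normalized counts were 24370 in the BRAFV600E library of 2 weeks and 240900 to 280300 in the 2 BRAFV600E/PI3Kα H1047R libraries of that week, and the highest sum, 377700, was that of BRAFV600E/PI3Kα H1047R replicate 1 at 6 weeks. In bulk sorted cells, fewer cells of a type and less RNA per cell cannot be told apart. *Ppargc1a* was 75.8 to 561 in the PGC1α Het libraries and 38.0 to 124 in the PGC1α Null libraries, which overlap. Reads from parts of the transcript outside the deleted exons would still be counted, so this is only a partial check of the labels. Y-linked genes went against the sex labels of both BRAFV600E/PI3Kα H1047R libraries of 12 weeks: *Ddx3y* was 55.4 in replicate 1, labelled male, and 1420 in replicate 2, labelled female. A value without these 2 libraries is given only for the pooled *Sox9* difference, so the other pooled values and all 12-week values include them.

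Across all weeks, the addition of PI3Kα H1047R went with lower *Sox9* and *Mycn*, with fitted ratios of 0.244 and 0.262 to BRAFV600E, and the other 7 members tested had smaller differences. By limma on log2 (normalized count + 1), 2 of 9 members had an unadjusted p under 0.05, both lower, against 6.83% of the 17558 genes tested, and 0 had an adjusted p under 0.05, against 0.0228% of all genes (4 genes). The median log2 difference was -0.45 over the 9 members and 0.02 over all genes tested.

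**Figure D1:**
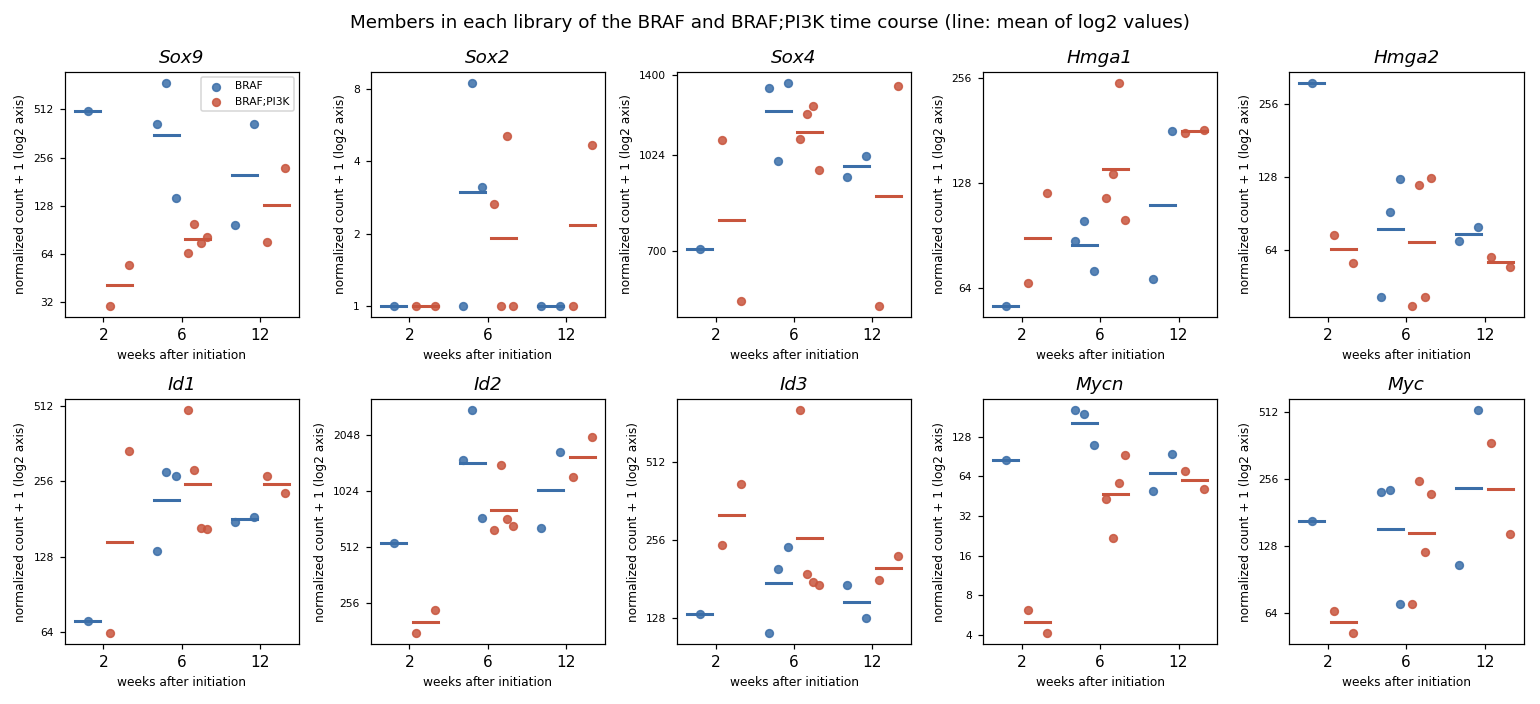
Normalized count + 1 of each member (log2 axis, its range set for each gene) against weeks p.i. in BRAFV600E (blue) and BRAFV600E/PI3Kα H1047R (red) libraries. Each point is 1 library and each line the mean of the log2 values in a group. *Sox9* and *Mycn* of the red group lie below the single blue point at 2 weeks and all 3 at 6 weeks, and the groups overlap at 12 weeks.

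*Sox9*, the tip progenitor factor (chromosome 11, 112782224 to 112787760, GRCm38), was 497 in the BRAFV600E library of 2 weeks and 29.4 and 54.0 in the BRAFV600E/PI3Kα H1047R libraries of that week. At 6 weeks it was 416, 748 and 143 in BRAFV600E replicates 1 to 3, and 64.3, 97.1, 74.6 and 80.5 in BRAFV600E/PI3Kα H1047R replicates 1 to 4. At 12 weeks the BRAFV600E values were 96.1 and 413 and the BRAFV600E/PI3Kα H1047R values 74.7 and 220. The groups did not overlap at 2 or 6 weeks, and they overlapped at 12 weeks. With 1 library against 2, the separation at 2 weeks says little: 35.1% of all genes tested separated in this direction and 36.6% in the other. The BRAFV600E libraries spread from 96.1 to 748, whereas the 4 BRAFV600E/PI3Kα H1047R libraries of 6 weeks lay close together. All 8 BRAFV600E/PI3Kα H1047R libraries were below the mean of the log2 values in BRAFV600E, and 6 of 8 were below its lowest library.

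The log2 difference for *Sox9* was -2.03 (SE 0.48, 95% confidence interval -3.05 to -1.01) over all weeks, which ranked 51 of the 17558 genes by p (unadjusted p = 0.000662; adjusted p = 0.225 by limma). A two-sided exact permutation test of the same difference gave p = 0.00599, where 0.000666 is the smallest it can give. Exchanging labels only within weeks tested an average of the differences by week instead, which was -2.14. That exact permutation p was 0.0159, with 0.003175 the smallest possible. For the pooled difference, leaving out each library in turn gave -2.37 to -1.78, and leaving out both BRAFV600E/PI3Kα H1047R libraries of 12 weeks gave -2.29. With the mean log2 level of the AT2 markers as a covariate the difference was -1.61 (unadjusted p = 0.00389), with that of the endothelial markers -1.59 (unadjusted p = 0.00369), and with labelled sex as a factor -1.56 (unadjusted p = 0.00632).

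By week, the log2 difference for *Sox9* was -3.61 (SE 1.01) at 2 weeks, -2.16 (SE 0.63) at 6 weeks and -0.63 (SE 0.83) at 12 weeks. The unadjusted limma p-values were 0.00377, 0.00485 and 0.459. The 12-week interval, -2.43 to 1.16, includes the 6-week estimate, and the change of the difference from 6 to 12 weeks was 1.53 (SE 1.04, unadjusted p = 0.166). At 2 weeks the estimate rests on 1 BRAFV600E library and on the spread of the other groups, and with AT2 markers as a covariate it was -2.16 (unadjusted p = 0.163), and with endothelial markers -2.33 (unadjusted p = 0.0871). At that week all 15 AT2 markers were lower in BRAFV600E/PI3Kα H1047R, 14 of them with an unadjusted p under 0.05, and their part in the *Sox9* difference was not tested further.

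*Mycn*, which supports growth of tip progenitors, was 85.1 in the BRAFV600E library of 2 weeks and 5.17 and 3.12 in the BRAFV600E/PI3Kα H1047R libraries of 2 weeks. At 6 weeks it was 203, 189 and 110 in BRAFV600E and 42.2, 20.7, 55.8 and 91.7 in BRAFV600E/PI3Kα H1047R. At 12 weeks it was 48.7 and 93.4 in BRAFV600E and 69.6 and 50.7 in BRAFV600E/PI3Kα H1047R. As for *Sox9*, the genotypes did not overlap at 2 weeks, where 35.1% of genes separated in this direction, or at 6 weeks, and overlapped at 12 weeks. At 6 weeks, *Sox9* and *Mycn* were among the 2.60% of tested genes whose 4 BRAFV600E/PI3Kα H1047R libraries were all below the 3 BRAFV600E libraries. In an exact permutation test each gave p = 0.0571, the smallest that 4 against 3 libraries allow.

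The log2 difference for *Mycn* was -1.94 (SE 0.68, 95% confidence interval -3.38 to -0.49) over all weeks, with rank 364 of 17558 (unadjusted p = 0.0117; adjusted p = 0.564 by limma). The exact permutation p was 0.00866 over all weeks and 0.0127 within weeks, where the average of the differences by week was -1.96. The difference was -4.09 (SE 0.85, unadjusted p = 0.000415; adjusted p = 0.0886 by limma) at 2 weeks, the lowest adjusted p of any member in any comparison, then -1.79 (SE 0.53, unadjusted p = 0.00556) at 6 weeks and -0.18 (SE 0.70) at 12 weeks. The interaction that compares weeks gave 2.31 (SE 1.01) for 6 minus 2 weeks (unadjusted p = 0.0405; adjusted p = 0.549 by limma) and 1.61 (SE 0.88) for 12 minus 6 weeks (unadjusted p = 0.0914). *Mycn* was the 1 member of 9 with an unadjusted p under 0.05 for 6 minus 2 weeks, against 8.95% of all genes. That p was over 0.05 in 6 of 10 other alternatives, with values down to 1.51 (unadjusted p = 0.226, endothelial markers as a covariate), and in 5 of 13 fits that each left out 1 library, with values of 1.98 to 2.68 over the 13. For 12 minus 6 weeks there were 0 of 9, against 2.87%. No gene of the 17558 had an adjusted p under 0.05 in either interaction by limma (0%), while 1571 and 504 had an unadjusted p under 0.05.

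The pooled difference for *Mycn* was smaller once marker levels were taken into account. It was -1.42 (unadjusted p = 0.0572) with endothelial markers and -1.05 (unadjusted p = 0.0724) with AT2 markers as a covariate. At 6 weeks these covariates left it at -1.70 (unadjusted p = 0.0069 and 0.0115). Without BRAFV600E/PI3Kα H1047R replicate 1 of 6 weeks, the library with the highest endothelial sum, the 2-week difference for *Mycn* stayed at -4.09 with an adjusted p of 0.0447 by limma, in a fit where 268 genes passed rather than 3.

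*Mycn* lies on chromosome 12 (12936093 to 12941914, minus strand, GRCm38) and so does *Id2* (25093799 to 25097140, minus strand), the other tip gene whose level differed between 2 and 6 weeks. Their promoters are shown because both were higher at 6 weeks in both genotypes. They are RefSeq sequence of GRCm38.p6 on the minus strand, from 250 bases before to 50 after the transcription start site, chr12:12941787-12942086 for *Mycn* and chr12:25096043-25096342 for *Id2*, whose RefSeq start lies inside the longer GENCODE gene. Capitals mark any match, on either strand, to TGTTTAC (forkhead), CACGTG (E-box), TGACGTCA (CRE), GGCGCC (SMAD), CCAAT (NF-Y), GGGCGG (GC box), CTTTGA (TCF) or CCGGAAG (ETS).

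Mycn: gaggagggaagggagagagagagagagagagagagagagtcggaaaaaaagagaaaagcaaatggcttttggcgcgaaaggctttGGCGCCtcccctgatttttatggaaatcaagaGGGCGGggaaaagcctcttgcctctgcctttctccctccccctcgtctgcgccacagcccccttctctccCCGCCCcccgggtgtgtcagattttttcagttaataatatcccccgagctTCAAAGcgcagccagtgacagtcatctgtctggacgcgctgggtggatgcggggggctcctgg

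Id2: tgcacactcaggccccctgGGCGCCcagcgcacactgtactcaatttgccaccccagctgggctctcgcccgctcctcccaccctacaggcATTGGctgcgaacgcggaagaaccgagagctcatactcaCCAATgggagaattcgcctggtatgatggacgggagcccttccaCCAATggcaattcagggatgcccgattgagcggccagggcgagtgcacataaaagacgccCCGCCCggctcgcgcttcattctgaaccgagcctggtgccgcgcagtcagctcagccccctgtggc

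Both windows held GGCGCC once, as did 11.9% of the 32851 promoters in the table, and GGGCGG, 2 times in *Mycn* and once in *Id2*, as in 35.7% of promoters. CCAAT was found 3 times in *Id2* and not in *Mycn* (37.4% of promoters hold it), and CTTTGA once in *Mycn* and not in *Id2* (16%). Neither held the forkhead (3.65% of promoters), E-box (7.15%), CRE (1.79%) or ETS (8.86%) letters. These are matches of letters only. Promoters were found for 7 of the 10 members, and *Sox9*, *Id1* and *Myc* had none in the table.

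*Myc*, the relative of *Mycn* that most adult tissues use, was 165 in the BRAFV600E library of 2 weeks and 64.4 and 51.1 in BRAFV600E/PI3Kα H1047R. At 6 weeks it was 69.2 to 228 in BRAFV600E and 69.7 to 248 in BRAFV600E/PI3Kα H1047R, and at 12 weeks 104 and 518 against 370 and 143. The genotypes overlapped at 6 and 12 weeks. The pooled log2 difference was -0.45 (SE 0.50, 95% confidence interval -1.52 to 0.61; adjusted p = 0.874 by limma).

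*Id2*, a tip progenitor gene, was 536 in the BRAFV600E library of 2 weeks and 177 and 234 in BRAFV600E/PI3Kα H1047R. It was 1501, 2770 and 733 in BRAFV600E at 6 weeks and 635, 1415, 726 and 666 in BRAFV600E/PI3Kα H1047R. The values of 12 weeks were 646 and 1654 against 1213 and 1994. The groups overlapped at 6 and 12 weeks. The pooled log2 difference was -0.70 (SE 0.54; adjusted p = 0.811 by limma), and by week it was -1.40 (SE 0.76), -0.84 (SE 0.47) and 0.59 (SE 0.62), none with an unadjusted p under 0.05.

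*Id3* was 132 in the BRAFV600E library of 2 weeks and 243 and 423 in BRAFV600E/PI3Kα H1047R. At 6 weeks it was 111, 197 and 240 in BRAFV600E and 814, 188, 175 and 170 in BRAFV600E/PI3Kα H1047R. The values at 12 weeks were 170 and 127 against 179 and 222. All 8 BRAFV600E/PI3Kα H1047R libraries were above the mean of the log2 values in BRAFV600E, and the groups overlapped over all weeks and at 6 weeks. At 12 weeks both BRAFV600E/PI3Kα H1047R libraries were higher in *Id3*, as in *Id1* (268 and 229 against 175 and 184), a separation that 15.4% of all genes showed in this direction. The log2 difference over all weeks was 0.70 (SE 0.35, 95% confidence interval -0.03 to 1.44; adjusted p = 0.73 by limma), with an exact permutation p of 0.0466. The average of the differences by week was 0.72, with an exact permutation p of 0.0952 within weeks. The pooled difference rests in part on BRAFV600E/PI3Kα H1047R replicate 1 of 6 weeks, whose 814 lay far above the nearest library of its group, at 188. With endothelial markers as a covariate it was 0.24 (unadjusted p = 0.383).

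Across the 14 libraries, *Id3* followed the endothelial marker level (Pearson's r = 0.84, Spearman's rho = 0.87) and the library with the highest *Id3*, BRAFV600E/PI3Kα H1047R replicate 1 of 6 weeks, had the highest endothelial sum. *Id3* is normally abundant in endothelial cells. In the 9 libraries of the PGC1α table the same r was 0.08. These correlations describe libraries that share genotype, week and cell makeup, and no test was made of them.

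*Id1* ran from 70.0 to 280 in BRAFV600E and from 62.5 to 492 in BRAFV600E/PI3Kα H1047R, with medians of 180 and 249. Its log2 difference over all weeks was 0.37 (SE 0.42; adjusted p = 0.876 by limma), and the 2 BRAFV600E/PI3Kα H1047R libraries of 2 weeks differed from each other more than the genotypes did, at 62.5 and 339. Of the 3 ID genes, *Id1* and *Id3* thus had positive and *Id2* negative pooled differences, with intervals that all include 0.

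*Hmga1* encodes the HMGA protein found in most dividing cells. It was 56.0 in the BRAFV600E library of 2 weeks and 65.2 and 119 in BRAFV600E/PI3Kα H1047R. At 6 weeks it was 86.3, 98.6 and 70.6 against 116, 135, 247 and 99.4, and at 12 weeks 67.1 and 180 against 178 and 181. At 2 and 6 weeks all libraries of BRAFV600E/PI3Kα H1047R were higher, as were 36.6% of genes at 2 weeks and 2.63% at 6 weeks. The pooled log2 difference was 0.62 (SE 0.32, 95% confidence interval -0.07 to 1.31; adjusted p = 0.739 by limma), and its exact permutation p was 0.0753. The average of the differences by week was 0.70, with an exact permutation p of 0.00952 within weeks.

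This value for *Hmga1* is uncertain, because 62.1% of the 31-base stretches of its GENCODE vM21 transcripts also occur in *Hmga1b*, a near-identical gene with its own row. *Hmga1b* was 45.4 to 413 in BRAFV600E and 25.1 to 222 in BRAFV600E/PI3Kα H1047R. The sum of both genes was 101 to 480 in BRAFV600E and 90.2 to 400 in BRAFV600E/PI3Kα H1047R. The log2 difference of the sum was -0.02 over all weeks (exact permutation p = 0.97). The average of its differences by week had the other sign, at 0.14 (exact permutation p = 0.559 within weeks). For the other members this share was at most 2.26% (*Hmga2*).

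*Hmga2*, an oncofetal gene and a let-7 target, had its highest value, 310, in the BRAFV600E library of 2 weeks, where the BRAFV600E/PI3Kα H1047R libraries had 72.4 and 55.3. At 6 weeks it was 39.7, 90.8 and 124 against 36.5, 117, 39.7 and 126, and at 12 weeks 68.4 and 78.2 against 58.8 and 53.2. Genotypes overlapped at 6 weeks, and the 2-week separation rests on 1 library. At 12 weeks both BRAFV600E/PI3Kα H1047R libraries were lower, as were 13.8% of all genes with 2 libraries against 2. Without BRAFV600E/PI3Kα H1047R replicate 2 of 2 weeks the unadjusted p at that week was 0.0695, and with AT2 markers as a covariate it was 0.203. The log2 difference was -2.28 (SE 0.87, unadjusted p = 0.0227; adjusted p = 0.287 by limma) at 2 weeks and -0.58 (SE 0.42) over all weeks. It was -0.17 (SE 0.54) at 6 weeks and -0.38 (SE 0.71) at 12 weeks, so the pooled value also rests in part on the single BRAFV600E library of 2 weeks. Other transcripts overlap *Hmga2* on both strands, and *Sox4* and *Hmga1* on the opposite strand. Counting by strand is not stated, so reads of these genes and of their overlapping partners may not be told apart.

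*Sox4*, which is common in progenitor and tumor cells, was among the steadiest members, at 704 to 1357 in BRAFV600E and 563 to 1342 in BRAFV600E/PI3Kα H1047R. Its pooled log2 difference was -0.10 (SE 0.23, 95% confidence interval -0.60 to 0.40) and an exact permutation p of 0.682. *Sox2*, the airway progenitor factor, was listed at 0 in 9 of 14 libraries and was at most 7.45, in BRAFV600E replicate 2 of 6 weeks. It fell below the filter of a mean normalized count of 10 and was not tested by limma.

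**Figure D2:**
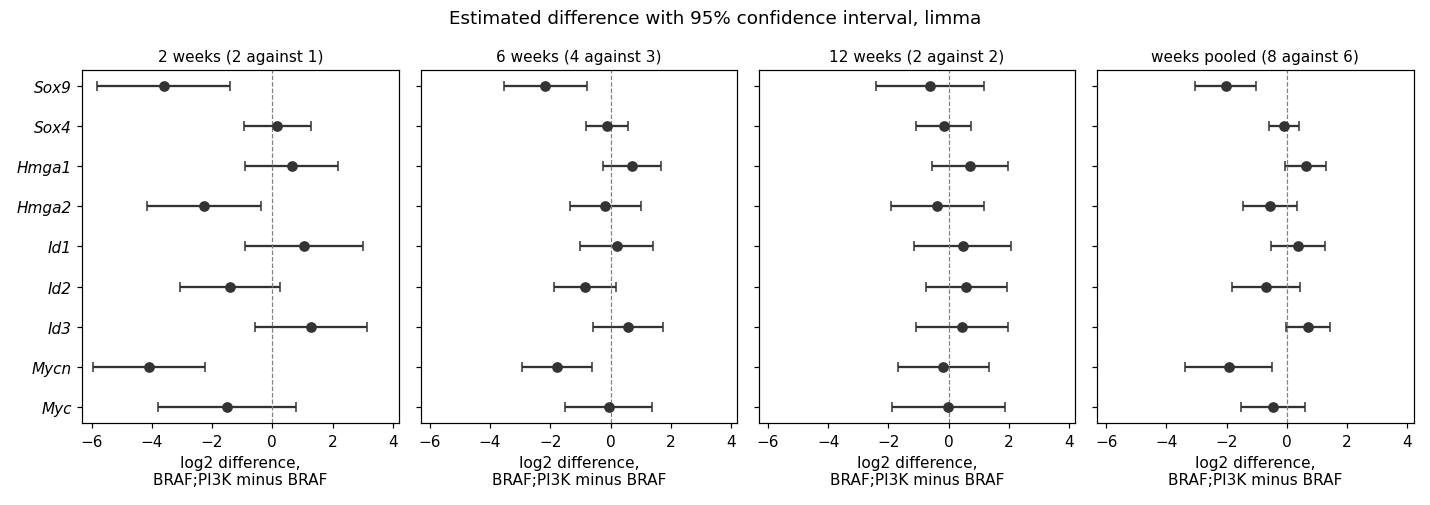
Difference in log2 (normalized count + 1), BRAFV600E/PI3Kα H1047R minus BRAFV600E, for the 9 members tested, with 95% confidence intervals from limma, at each week and over all weeks. Numbers in the panel titles are libraries. The *Sox9* and *Mycn* intervals lie below 0 at 2 weeks, at 6 weeks and over all weeks, *Hmga2* only at 2 weeks, and at 12 weeks all 9 include 0.

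Counted by week, 3 of 9 members (*Mycn*, *Sox9* and *Hmga2*, all lower) had an unadjusted p under 0.05 at 2 weeks, against 13.5% of all genes, and 2 of 9 (*Sox9* and *Mycn*) at 6 weeks, against 4.24%. At 12 weeks it was 0 of 9, against 3.76%. With the adjusted p the count of members was 0 at each of these weeks, against 0.0171%, 0.0228% and 0.0114% of genes. The 12-week comparison has 2 libraries in each group, both of the mutant ones with Y-linked genes against their sex label.

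Between 2 and 6 weeks, averaged over both genotypes, *Mycn* was 4.2-fold and *Id2* 3.28-fold higher at 6 weeks by the fit, and the other members differed less. The log2 difference was 2.07 (SE 0.50, unadjusted p = 0.00138; adjusted p = 0.202 by limma) for *Mycn*, 1.71 (SE 0.45, unadjusted p = 0.00237; adjusted p = 0.228 by limma) for *Id2* and 1.19 (SE 0.53, unadjusted p = 0.045; adjusted p = 0.472 by limma) for *Id1*. These 3 of 9 members, all higher, compare with 10.4% of all genes at an unadjusted p under 0.05, and 0 of 9 with 0.0399% at an adjusted p under 0.05. All 7 *Id2* values at 6 weeks (635 to 2770) were above all 3 at 2 weeks (177 to 536), a separation that 1.49% of genes showed in this direction. The *Mycn* values overlapped, since the BRAFV600E library of 2 weeks (85.1) lay above 3 of the 4 BRAFV600E/PI3Kα H1047R libraries of 6 weeks. The average over genotypes hides a difference between them for *Mycn*. Its mean log2 level was 6.43 at 2 weeks (1 library) and 7.35 at 6 weeks in BRAFV600E. In BRAFV600E/PI3Kα H1047R it was 2.33, from low counts, and 5.56. For *Id2* these means were 9.07 and 10.50 in BRAFV600E, and 7.67 and 9.67 in BRAFV600E/PI3Kα H1047R.

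AT2 markers and proliferation genes were also higher at 6 weeks. All 15 AT2 markers and all 16 proliferation genes had positive differences, 14 and 10 of them with an unadjusted p under 0.05, with median log2 differences of 1.27 and 1.44. AT1 markers were lower: 13 of 15 had negative differences, 9 with an unadjusted p under 0.05, with a median of -0.96. The part of these markers in the *Id2* and *Mycn* differences was not tested beyond the covariates that follow. With AT2 markers as a covariate the *Id2* difference was 1.00 (unadjusted p = 0.109) and the *Mycn* difference 1.80 (unadjusted p = 0.0291). With endothelial markers as a covariate they were 1.82 and 2.16, with adjusted p-values of 0.0426 and 0.0433 by limma, in a fit where 439 genes passed rather than 7. The *Id1* difference had an unadjusted p over 0.05 in 9 of 13 fits that each left out 1 library. It was 0.58 without BRAFV600E/PI3Kα H1047R replicate 1 of 2 weeks and 1.79 without replicate 2 of that week, and 2.45 with AT2 markers as a covariate.

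From 6 to 12 weeks no member differed with an unadjusted p under 0.05 (0 of 9, against 5.99% of genes, and 0.0114% with an adjusted p under 0.05). *Myc* had the largest positive estimate, 0.63 (SE 0.54), and *Mycn* the largest negative one, -0.44 (SE 0.44).

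PGC1α Null and Het tumor cells at 12 weeks p.i. had no member past the test by limma: 0 of 9 had an unadjusted p under 0.05, against 3.83% of the 17424 genes tested, and 0 had an adjusted p under 0.05, as for all genes (0%; 667 genes had an unadjusted p under 0.05). With all libraries in, *Mycn* and *Sox9* had the largest positive estimates and *Sox4* the largest negative one. The *Mycn* estimate rests in part on PGC1α Null replicate 2, at 66.6, with the nearest Null library at 30.5.

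**Figure D3:**
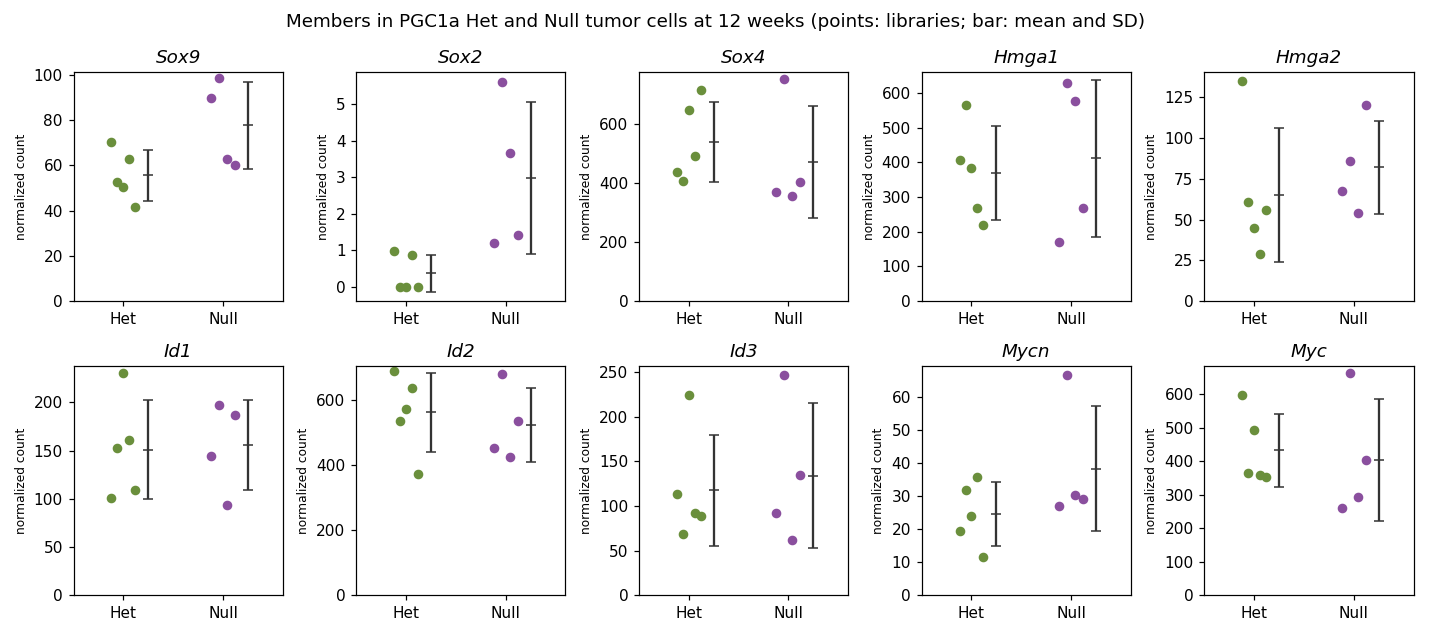
Normalized counts of each member in the 5 PGC1α Het (green) and 4 PGC1α Null (purple) libraries of 12 weeks, on linear axes set for each gene. Points are libraries, and bars give the mean and SD. The groups overlap for every member except *Sox2*, whose highest value is 5.60.

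*Sox9* was 70.5, 52.5, 50.3, 62.8 and 41.8 in PGC1α Het replicates 1 to 5 and 89.9, 98.6, 63.1 and 60.0 in PGC1α Null replicates 1 to 4. Every PGC1α Null library was above the Het mean of log2 values and 2 of 4 were above the highest Het library. The log2 difference was 0.47 (SE 0.32, 95% confidence interval -0.21 to 1.15; adjusted p = 0.998 by limma; exact permutation p = 0.0794, smallest possible 0.0159). *Mycn* was 19.6, 31.8, 24.02, 35.9 and 11.6 in Het and 27.0, 66.6, 30.5 and 29.1 in Null, a difference of 0.61 (SE 0.47, 95% confidence interval -0.41 to 1.64; exact permutation p = 0.206). The groups overlapped for both genes.

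*Sox2* was 0.966, 0, 0, 0.856 and 0 in PGC1α Het and 1.19, 5.60, 3.67 and 1.40 in PGC1α Null. All 4 Null libraries were above all 5 Het libraries (exact permutation p = 0.0159, the smallest this design allows). The *Sox2* values are low, 3 of the Het libraries are listed at 0, and the gene was below the filter on low values. Of the genes above that filter, 0.941% separated in this direction, a share that may not hold for genes as low as *Sox2*. Club and ciliated airway markers were also higher in PGC1α Null: of the 10 tested, 9 had a positive difference and 5 an unadjusted p under 0.05, with a median log2 difference of 2.12. Their part in the *Sox2* values was not tested. A noncoding gene, *Sox2ot*, overlaps *Sox2* on the same strand.

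The other members overlapped between PGC1α Het and Null. The log2 differences were -0.24 (SE 0.27) for *Sox4*, 0.04 (SE 0.40) for *Hmga1*, 0.46 (SE 0.43) for *Hmga2*, 0.05 (SE 0.32) for *Id1*, -0.10 (SE 0.24) for *Id2*, 0.12 (SE 0.43) for *Id3* and -0.16 (SE 0.29) for *Myc*. The 95% confidence intervals bound the change most closely for *Id2*, at -0.61 to 0.41, and least for *Hmga2*, at -0.48 to 1.39. Of 19 endothelial markers tested, all had a positive difference, 14 with an unadjusted p under 0.05, and their summed normalized counts were 1338 to 2283 in Het and 3167 to 4944 in Null. Fibroblast and smooth muscle markers (13 of 13 positive, 7 with an unadjusted p under 0.05, median 1.26) and macrophage markers (12 of 14 positive, 7 at that level, median 1.32) also had higher levels in Null. The part of these markers in the members' levels was not tested.

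Within each table some members varied together across libraries. Of the 36 pairs among 9 members, 21 had a positive Pearson's r over the 14 time course libraries and 31 over the 9 PGC1α libraries. *Sox9* and *Mycn* had r = 0.73 and 0.69, *Id2* and *Myc* 0.73 and 0.76, and *Id2* and *Mycn* 0.74 and 0.56. The pair *Id3* and *Myc* had -0.67 in the first table and 0.76 in the second. These points share genotype and week, and they are given as a description.

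**Figure D4:**
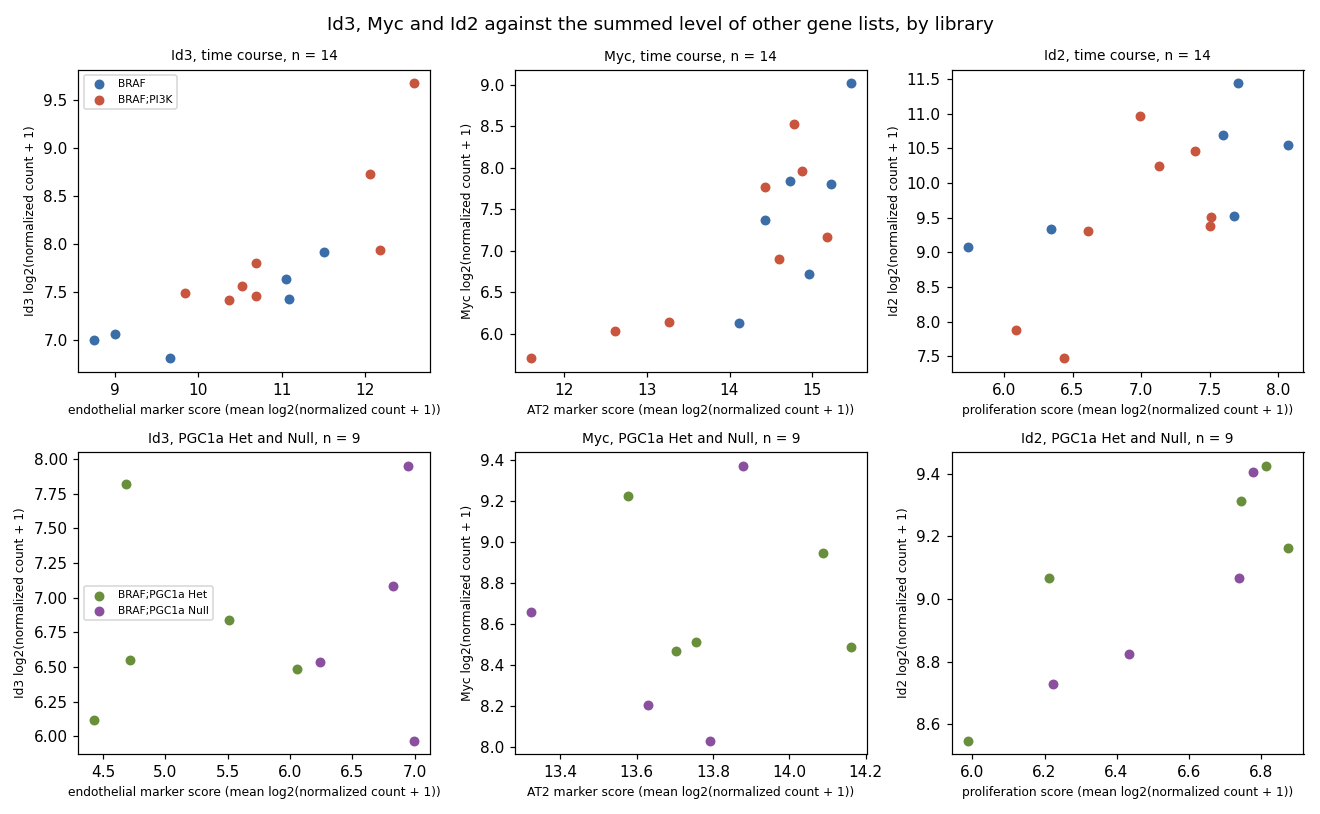
Log2 (normalized count + 1) of *Id3*, *Myc* and *Id2* in each library against the mean log2 level of endothelial markers, AT2 markers and proliferation genes, in the 14 time course libraries (top) and the 9 PGC1α libraries (bottom). *Id3* rises with endothelial markers (r = 0.84) and *Myc* with AT2 markers (r = 0.78) in the top row but not in the bottom row (r = 0.08 and 0.06), while *Id2* rises with proliferation genes in both (r = 0.66 and 0.85).

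Across the time course libraries *Myc* had r = -0.84 with endothelial, -0.83 with fibroblast and smooth muscle and 0.78 with AT2 markers. In the PGC1α table these were -0.04, 0.40 and 0.06. With AT2 markers *Id2* had r = 0.83, and *Mycn* had r = 0.79 with a Spearman's rho of 0.44. The 2 BRAFV600E/PI3Kα H1047R libraries of 2 weeks were the lowest in *Mycn*, at 3.12 and 5.17. In the PGC1α table the r values with AT2 markers were 0.27 for *Id2* and 0.25 for *Mycn*. *Id2* had r = 0.66 with proliferation genes in the time course and 0.85 in the PGC1α table.

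The genes whose pattern was most like each member were taken as the 3 with the highest r over the 14 libraries among genes with a mean of at least 40. The nearest were *Eef1b2*, a translation elongation factor subunit, for *Sox9* (r = 0.91), *Hbegf*, an EGF receptor ligand, for *Myc* (r = 0.93), *Axin2*, a Wnt pathway gene, for *Id3* (r = 0.93), and *Slc9a3r1*, a scaffold of the apical membrane, for *Id2* (r = 0.94). *Morc3* was nearest to *Mycn* (r = 0.93), *Polg2* to *Sox4* (r = 0.90), *Cdk9* to *Hmga1* (r = 0.91), *Fam109b* to *Hmga2* (r = 0.86) and *Gorab* to *Id1* (r = 0.96). Over the 27 genes so named, r in the 9 PGC1α libraries ranged from -0.41 to 0.63 and was positive for 21 and negative for 6. It was 0.59 for *Eef1b2*, 0.39 for *Hbegf* and -0.22 for *Axin2*.

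Of 30 genes that work with *Sox9* and *Id2* at the lung tip, none passed an adjusted p of 0.05 by limma with PI3Kα H1047R over all weeks, and 4 had an unadjusted p under 0.05, 2 lower and 2 higher, against 6.83% of all genes. The median log2 difference was -0.42, against 0.02 over all genes, and 24 of 30 estimates were negative. At an unadjusted p under 0.05, *Fgfr2*, the receptor for FGF10 (-0.91, SE 0.32), and *Foxp1* (-0.51, SE 0.23) were lower, and *Sox11* (2.21, SE 0.80) and *Mdk*, a heparin-binding growth factor (1.42, SE 0.63), were higher. At 2 weeks 11 of 30 were lower and 2 higher at that level, against 13.5% of all genes, and 0 passed the adjusted p. The lower genes included *Gata6* (-1.65, SE 0.37), *Shh* (-4.32, SE 1.03) and *Elf5* (-3.28, SE 0.83). At the same week 14 of 15 AT2 markers were lower and 18 of 20 endothelial markers higher at that level, and their part in the tip genes' differences was not tested. At 6 weeks 0 of 30 tip genes had an unadjusted p under 0.05, against 4.24% of all genes, and 21 estimates were negative (median -0.18). At 12 weeks 1 was lower at that level, against 3.76% of all genes, and 16 estimates were positive and 14 negative (median 0.01). In PGC1α Null against Het, 23 of 29 were negative (median -0.23), with 0 at an unadjusted p under 0.05, against 3.83% of all genes.

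Of 14 oncofetal genes around LIN28 and IGF2BP, which include regulators of let-7, *Dlk1* was the 1 gene with an unadjusted p under 0.05 over all weeks, against 6.83% of all genes, at -4.34 (SE 0.89; adjusted p = 0.148 by limma), and 8 of 14 estimates were negative. In PGC1α Null against Het, 1 of 14 had an unadjusted p under 0.05, against 3.83% of all genes, and 7 estimates were positive and 7 negative. That gene was *Lin28b*, which blocks let-7 maturation, at 1.34 (SE 0.48; adjusted p = 0.998 by limma). For the HMGA relatives, 0 of 9 had an unadjusted p under 0.05 over all weeks, and 6 of 9 were negative.

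Among inputs to the ID genes, 30 BMP and SMAD pathway genes were tested and 15 were positive and 15 negative over all weeks (median 0.03). The BMP antagonist *Grem1* (-3.22, SE 0.81) and the ligand *Bmp2* (-1.41, SE 0.45) were lower with an unadjusted p under 0.05, neither with an adjusted p under 0.05 by limma. These 2 of 30 are about the share over all genes, 6.83%. In PGC1α Null against Het, the endothelial BMP receptor *Acvrl1* (2.04, SE 0.46) and its co-receptor *Eng* (2.17, SE 0.75) were the 2 of 29 with an unadjusted p under 0.05, against 3.83% of all genes, beside the higher endothelial markers given above. Of the ID partners, basic helix-loop-helix genes and their relatives, 0 of 10 had an unadjusted p under 0.05 with PI3Kα H1047R over all weeks, against 6.83% of all genes. *Hey1* (2.57, SE 0.73) and *Tcf4* (0.80, SE 0.30) were the 2 of 8 with one in PGC1α Null against Het, against 3.83% of all genes. They too stand beside the higher endothelial markers, whose part was not tested. None of the ID partners passed the adjusted p.

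Of the 38 MYC target genes tested, 0 passed the adjusted p by limma with PI3Kα H1047R over all weeks, and 28 estimates were negative (median -0.24, against 0.02 over all genes). An unadjusted p under 0.05 was found for 4 of 38, against 6.83% of all genes, all lower: *Gnl3* (-0.75, SE 0.23), *Hspd1* (-0.55, SE 0.19), *Wdr43* (-0.43, SE 0.17) and *Npm1* (-0.47, SE 0.20). From 2 to 6 weeks, 4 of 38 had an unadjusted p under 0.05, about the share over all genes, 10.4%, and 25 estimates were positive. The 4, all higher, included the spermidine synthase gene *Srm* (1.68, SE 0.36; adjusted p = 0.148 by limma) and the nucleolar gene *Fbl* (1.33, SE 0.39). In the MYC network, which holds *Max* and the MXD antagonists, 0 of 15 had an unadjusted p under 0.05 over all weeks.

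Of 9 other SOX genes tested, 0 passed the adjusted p over all weeks, and 3 had an unadjusted p under 0.05, against 6.83% of all genes. *Sox5* (0.92, SE 0.32), *Sox17* (1.43, SE 0.53) and *Sox11*, which is also on the tip list, were higher at that level. At 2 weeks 4 of 9 were higher and 2 lower at that level, against 13.5% of all genes. *Sox1* was lower (-2.69, SE 1.00). *Sox12* (-2.10, lower) and *Sox11* (3.65, higher) complete the 6 and were named after their values were seen. The log2 differences of *Sox17*, *Sox7* and *Sox18*, which are known from endothelial cells, were 3.76 (SE 0.96), 3.81 (SE 1.06) and 3.48 (SE 1.13), beside a median of 3.37 over the 20 endothelial markers, all of which were positive.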

How the data were processed

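RNA from flow sorted tdTomato+ tumor cells of 23 libraries was sequenced as 50-base single-end reads. Per the labels, the authors quantified reads with Salmon and scaled them with DESeq2 on Galaxy, against GRCm38; versions, annotation and strand settings are not given in the sources used here. The deposited values are a signal, the estimated count of each gene divided by the size factor of its library, in separate tables of 14 and 9 libraries. Only 10.6% to 41.4% and 15.2% to 26.8% of values were whole multiples of the commonest step (tolerance 0.01), so whole reads were not recovered and read depth is unknown. The authors' tables of their own fold changes and p-values were not used. The study's methods name individual animals or tumors as biological replicates, and groups came from the labels.

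The differences were tested with limma 3.58.1 (R 4.3.3) on log2 (value + 1), with a variance trend, for genes with a mean of at least 10, and p-values were adjusted by the Benjamini-Hochberg method over all genes tested. Fold changes are on this scale and understate those of low genes. Single genes were also compared by two-sided exact permutation tests, 44 in all (40 of members and 4 of the *Hmga1* and *Hmga1b* sum), whose p-values are unadjusted. Tests that exchanged labels within weeks used an average of the differences by week, weighted by the BRAFV600E/PI3Kα H1047R libraries, and not the pooled difference. The fit was tested on simulated data in which 200 genes were shifted by 2 log2 units: it recovered 136 of them, with 9 false calls, in the time course over all weeks, and 111, with 5 false calls, for PGC1α Null against Het. Shared 31-base stretches were counted in GENCODE vM21 transcripts. The members and the gene and marker lists were chosen with earlier results of these data known. All members were described, and of each other list the genes named are among the 4 with the smallest unadjusted p under 0.05 in a comparison. The 3 genes with the highest r were taken as most alike. Alternatives were another pseudocount, other filters, quantile normalization, no variance trend, week or sex as a factor, marker scores as covariates, a replicate block and leaving out libraries. The sum of *Hmga1* and *Hmga1b* was added after seeing the data.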

Additional observations from a re-analysis of the deposited data

Results flagged for a closer look

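Among groups of 4 or 5 libraries, 5 of 30 sets of values of a member in a group had 1 library far from the others by Dixon's criterion. Chance meets it in about 1 in 20 sets of normally distributed values. It was applied to normalized counts without logs, so the chance rate for these sets is not known. At 6 weeks in BRAFV600E/PI3Kα H1047R, *Id2* was 1415 in replicate 2, with the nearest library at 726, and *Id3* was 814 in replicate 1, with the nearest at 188. In PGC1α Het, *Id3* was 224.5 in replicate 3, with the nearest at 114. In PGC1α Null replicate 2, *Sox4* was 751.8, with the nearest at 402, and *Mycn* was 66.64, with the nearest at 30.5. The PI3Kα H1047R difference for *Mycn* changed by 2.31 on the log2 scale from 2 to 6 weeks (unadjusted p = 0.0405; adjusted p = 0.549 by limma), and it rests on 1 BRAFV600E library at 2 weeks. Its unadjusted p was over 0.05 in 6 of 10 other alternatives, among them either marker covariate and the replicate block, and in 5 of 13 fits that each left out 1 library.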

How the results depend on the processing

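Members with an adjusted p under 0.05 by limma numbered 0 in every comparison as reported. They numbered 2 (*Mycn* and *Id2*) for 6 against 2 weeks with the endothelial covariate, and ranged from 0 to 1 at 2 weeks when leaving out each library. At an unadjusted p under 0.05, the count at 2 weeks (3 as reported) was 1 with either marker covariate. For 6 minus 2 weeks (1 as reported) it was 0 with pseudocount 4, a mean over 40, quantile normalization, the replicate block or either covariate, and 0 to 2 when leaving out each library. For 12 minus 6 weeks (0 as reported) it was 1 with sex as a factor or the replicate block, and 0 to 2 when leaving out each library. For 12 against 6 weeks (0 as reported) leaving out each library gave 0 to 1. For PGC1α Null against Het (0 as reported) it was 1, *Sox2*, with no filter. The share of all genes at an unadjusted p under 0.05 is given below for the replicate block only. Counts from the other fits cannot be set beside such a share.

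Libraries with the same replicate number did not deviate together (correlations -0.28 to -0.01 in the time course and -0.47 to 0.21 in the PGC1α table). With 5 and 4 such pairs, these values are too few to exclude a link between them. With the replicate block, members at an unadjusted p under 0.05 numbered 2 over all weeks (6.68% of all genes in that fit), 4 at 2 weeks (12.9%), 3 at 6 weeks (3.60%) and 2 for 6 against 2 weeks (6.95%). *Id2* was the member gained at 2 weeks (-1.85), at 6 weeks (-0.74) and for 12 minus 6 weeks (1.33, in a fit with 2.67% of genes), and *Id1* the one lost for 6 against 2 weeks. The 2-week comparisons could not be fitted without the single BRAFV600E library of 2 weeks, nor the 12-week ones without both BRAFV600E/PI3Kα H1047R libraries of 12 weeks. The cause of these shifts was not tested. Read depth is unknown, which limits what can be said of *Sox2*.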
